A study of Mus musculus with 4 samples.

Results

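The 10 Wnt ligand genes Wnt3, Wnt4, Wnt5a, Wnt5b, Wnt6, Wnt7a, Wnt7b, Wnt9a, Wnt10a and Wnt10b were followed in RNA sequencing of 2 mouse keratinocyte lines. They were taken by gene name from a deposited table of 23420 genes, and all 10 were found there. The lines are called MK1 and MK2, each was given with 2 biological replicates, called cultures below, and the 4 libraries came from total RNA made into TruSeq libraries. How the replicates were separated is not given. No treatment, strain, age, sex, passage or method of line derivation is given in the sources used here, so each line stands for itself alone. The p-values weigh the difference between lines against the spread between cultures, pooled over both lines and with information shared across genes. Every difference is given as MK2 minus MK1.

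Wnt proteins are secreted, lipid-modified glycoproteins that bind Frizzled receptors on the same or nearby cells. With the co-receptors Lrp5 and Lrp6 they stabilise beta-catenin, which acts with TCF/LEF factors in the nucleus, and with Ror receptors or planar polarity proteins they act without beta-catenin. In skin, ligands made by the epidermis are needed for hair follicle formation and for upkeep of the basal layer, and Wnt5a is best known from the dermis. Wnt10a and Wnt10b are ligands of ectodermal appendages, Wnt7a patterns the limb from its dorsal ectoderm, Wnt7b is its close relative, and Wnt4 is also known from kidney and gonad development.

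Levels are CPM, read counts scaled to a library total of 1000000 after TMM normalisation, wherever samples are compared. TPM, which also divides by gene length, is used wherever genes are compared. Libraries held 25237391 to 30261111 counts. Cells were labelled as keratinocytes, and Krt5, Krt14 and Trp63 were present in every library at 7021 to 8859, 7594 to 9176 and 214 to 265 CPM. Of 8 keratinocyte markers, 1 was higher in MK2 (Itga6, log2 change 0.83) and 3 were lower (Col17a1 -1.06, Perp -0.57, Dsg3 -0.44). That is 50%, beside 54.6% of all tested genes. Of 8 hair follicle markers, 6 were tested, Edar fell and Krt17 rose from 3.65 and 3.31 to 755 and 900 CPM. That is 33.3% called, beside the same 54.6%. Sox9, Nfatc1 and Tbx1 were not called, Shh had 0 counts throughout and Lhx2 stayed under 1 CPM. Krt15, not called, stood at 27.9 and 0.247 CPM in MK2. Of 7 melanocyte markers, 3 were tested and Mitf alone was called, lower in MK2. Of 9 fibroblast markers, 7 stayed under 1 CPM in every library, and Pdgfrb, Dcn and Lum had 0 counts throughout. Pdgfra stood at 3.22 and 2.53 CPM in MK1 and 0.318 and 0.987 CPM in MK2. Twist2 had 31 counts in each MK1 library and 0 in MK2. Of 3 fibroblast markers tested, Pdgfra and Twist2 were lower in MK2 and Vim was not called. The summed level of the fibroblast list was 4.90 and 4.51 CPM in MK1 and 1.03 and 1.41 CPM in MK2. The summed level of 8 leukocyte markers was 29.8 and 28.9 CPM in MK1 against 0.318 and 0.176 CPM in MK2, and all 6 of the 8 that could be tested were lower in MK2. Of 5 endothelial markers, Cdh5 and Emcn had 0 counts throughout, Tek had 1 count in all, Pecam1 was near 1 CPM and not called, and Kdr alone rose, from 17.1 and 14.0 CPM to 24.4 and 26.2 CPM. The part of such cells in the values below was not tested. Bulk RNA cannot tell fewer cells of a type from less RNA per cell.

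For 7 of the 10 genes the RefSeq table (GRCm38.p6, the same coordinates as mm10) held a promoter, and for Wnt5a, Wnt7b and Wnt10a it held none. Below are the 250 bases upstream of the start for the pair of matched members with the most mRNA and for a pair with almost none. They read 5′ to 3′ on the gene's strand, and capitals mark each match to the GC box GGGCGG on either strand, overlapping matches included. The windows are chr4:137277385-137277634 on the plus strand for Wnt4, chr6:91411354-91411603 on the minus strand for Wnt7a, chr11:103773925-103774174 on the plus strand for Wnt3 and chr15:98778151-98778400 on the minus strand for Wnt10b. The 3′ end of the Wnt7a window reaches into the exon span of the deposited Wnt7a row, which ends at 91411369.
Wnt4: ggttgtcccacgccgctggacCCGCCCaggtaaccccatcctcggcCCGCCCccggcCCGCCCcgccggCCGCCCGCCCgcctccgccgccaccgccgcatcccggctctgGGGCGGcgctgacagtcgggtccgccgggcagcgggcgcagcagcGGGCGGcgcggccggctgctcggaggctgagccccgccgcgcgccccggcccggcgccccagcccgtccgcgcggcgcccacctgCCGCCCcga
Wnt7a: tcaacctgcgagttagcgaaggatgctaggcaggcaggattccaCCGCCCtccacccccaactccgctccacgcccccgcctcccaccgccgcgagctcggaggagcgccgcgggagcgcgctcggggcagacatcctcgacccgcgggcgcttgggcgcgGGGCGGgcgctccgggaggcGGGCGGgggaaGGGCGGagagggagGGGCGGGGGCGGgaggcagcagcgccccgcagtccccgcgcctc
Wnt3: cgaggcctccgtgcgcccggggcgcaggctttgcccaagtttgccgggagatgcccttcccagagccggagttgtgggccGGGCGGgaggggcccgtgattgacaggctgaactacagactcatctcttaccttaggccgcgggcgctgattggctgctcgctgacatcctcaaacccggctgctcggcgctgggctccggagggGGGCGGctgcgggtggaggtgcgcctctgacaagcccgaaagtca
Wnt10b: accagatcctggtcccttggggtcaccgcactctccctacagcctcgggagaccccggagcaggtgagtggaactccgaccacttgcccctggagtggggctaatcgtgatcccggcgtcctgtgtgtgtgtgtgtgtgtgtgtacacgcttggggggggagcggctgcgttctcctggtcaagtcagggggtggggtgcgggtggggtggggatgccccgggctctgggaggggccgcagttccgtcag

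The Wnt4 window held 8 GC boxes and the Wnt7a window 6, against 2 for Wnt3 and 0 for Wnt10b. A GC box was present in 32.7% of 32851 promoter windows of that length. The number of CpG dinucleotides was 44 for Wnt4, 34 for Wnt7a, 22 for Wnt3 and 14 for Wnt10b, and the median over all windows was 6. Wnt9a and Wnt6, expressed at intermediate levels, had 48 and 28 CpG with 5 and 6 GC boxes. Wnt5b, which had no reads, has 3 starts in the table, with 35, 4 and 7 CpG. The outermost Wnt5b start was close to that of Wnt7a in CpG number although no read was counted. On both strands 3 further motifs were searched, and none was found upstream of Wnt3, Wnt4, Wnt6, Wnt7a, Wnt9a or Wnt10b: TATAAA (12.4% of all windows), the TCF/LEF core CTTTGA (13.8%) and the AP-1 site TGANTCA (6.75%). Upstream of Wnt5b, 1 start held a TCF/LEF core and the outermost start held an AP-1 site. These matches describe letters and not binding. The printed pairs were picked by mRNA level, and a link between such matches and level was not tested.

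Both lines transcribed the same short set of Wnt ligands. Of the 10 members, 7 were above 1 CPM in all 4 libraries, and Wnt3, Wnt10b and Wnt5b were below 1 CPM in all 4. Wnt4, Wnt10a, Wnt7b and Wnt7a together made up 93.9% and 93.8% of the summed TPM of the 19 mouse Wnt genes in the MK1 cultures and 91.5% and 91.3% in the MK2 cultures. Wnt10a, at 566th, 578th, 837th and 923rd place among 23420 genes by TPM in the 4 libraries, and Wnt4, at places 487, 608, 845 and 1704, belonged to the well-expressed genes of these cells.

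**Figure D1:**
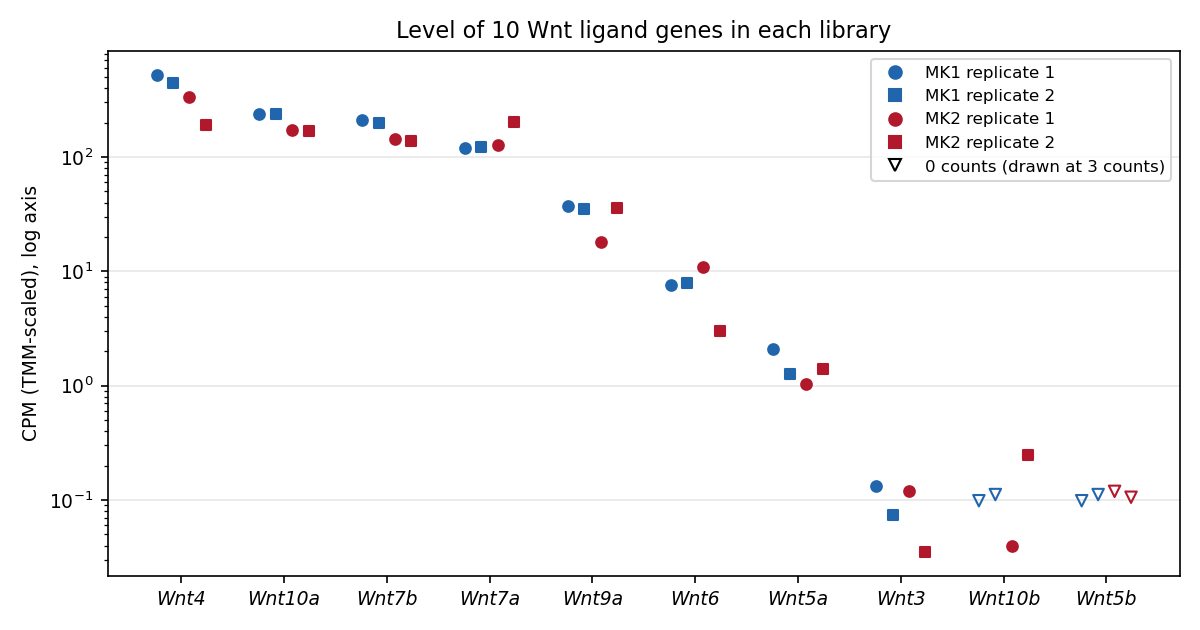
CPM on a log axis for the 10 Wnt ligand genes in the 4 libraries (circles replicate 1, squares replicate 2, blue MK1, red MK2, open triangles 0 counts drawn at the level of 3 counts). Wnt4, Wnt10a, Wnt7b and Wnt7a lie above 100 CPM in every library, and Wnt3, Wnt10b and Wnt5b lie below 1 CPM.

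In order of TPM, Wnt4 (291 and 241) and Wnt10a (255 and 249.6) led in MK1, and their ranges overlapped. Wnt7b followed at 101 and 92.2 TPM and Wnt7a at 79.96 and 79.5 TPM, each apart from its neighbours in the order. In MK2, Wnt10a stood first at 179 and 170.4 TPM, but the spread of Wnt4 (177 and 99.2 TPM) overlapped it, as that of Wnt7a (80.2 and 126 TPM) overlapped that of Wnt4. Wnt7b came after them at 65.2 and 62.4 TPM, so that Wnt7a stood below Wnt7b in both MK1 cultures and above it in both MK2 cultures. Lower down, Wnt9a stood at 23.8 and 21.8 TPM in MK1 and 11.0 and 21.5 TPM in MK2, and Wnt6 at 7.84 and 7.86 TPM in MK1 and 10.6 and 2.90 TPM in MK2. Wnt5a was last of the 7 at 0.477 to 1.02 TPM.

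**Figure D2:**
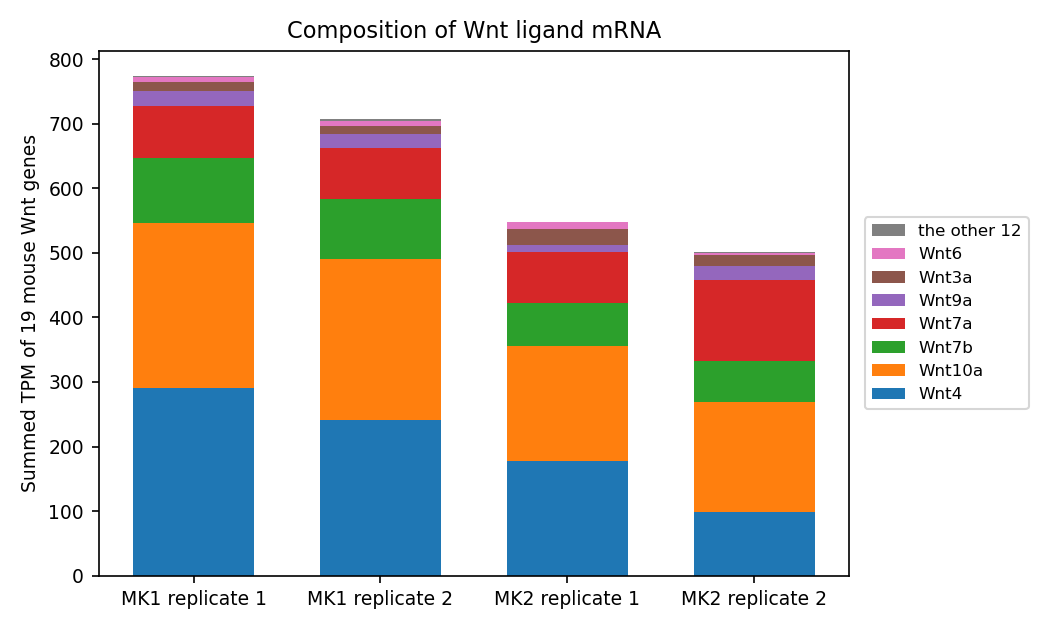
Stacked TPM of the 19 mouse Wnt genes in each library, with 7 genes drawn by name and the other 12 together in grey. The total falls from 774 and 707 TPM in MK1 to 548 and 502 TPM in MK2, and the bands of Wnt4, Wnt10a, Wnt7b and Wnt7a fill most of each bar.

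Total ligand mRNA was lower in MK2, and most of the fall was that of Wnt4. The mean sum of the 10 members went from 1093 CPM in MK1 to 776 CPM in MK2, and the mean of Wnt4 from 486 to 264 CPM. The 10 members summed to 1139.9 and 1045 CPM in MK1 and 809 and 742 CPM in MK2, a ratio of 0.710, with no overlap between the lines. Per length, the sums were 760 and 693 TPM against 524 and 484 TPM, a ratio of 0.694. The share of Wnt10a was 34.1% ± 1.69 in MK1 and 33.3% ± 0.909 in MK2 (SD, n = 2 in each line here and below). The share of Wnt7b was 13.1% ± 0.00404 in MK1 and 12.2% ± 0.378 in MK2. Wnt7a took 10.3% and 11.3% in MK1 against 14.6% and 25.2% in MK2. Wnt4 took 37.6% and 34.2% in MK1 against 32.4% and 19.8% in MK2, so for both genes the MK2 cultures lay farther apart than the MK1 cultures.

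Of the 7 members that could be tested, Wnt4, Wnt7b and Wnt10a were lower in MK2 and 0 were higher. At an unadjusted p under 0.05 the same test gave 3 lower and 0 higher, and DESeq2 called 3 lower and 0 higher. The count of called members was 0 without MK1 replicate 1 (2 at an unadjusted p under 0.05), 1 without MK1 replicate 2, 5 without MK2 replicate 1 and 4 without MK2 replicate 2. Every adjusted p here and below is from the quasi-likelihood test of edgeR, adjusted by Benjamini-Hochberg over all genes tested in that fit, unless another tool is named. With all libraries and the main filter these were 12479 genes. The filter kept 12644 to 12777 genes with a library left out, 10972 at a minimum count of 50 and 16776 with no low-count filter. All 7 had counts in both lines. For comparison, 54.6% of all tested genes were called in either direction, 28.6% lower and 25.9% higher, and the share of the 7 members was 42.9%. The median log2 change of the 7 was -0.46 against -0.0098 for all tested genes, and the median size of change, 0.46, stood beside 0.48 for all genes. By glmTreat, edgeR's test for changes beyond 2-fold, 0 of the 7 members were called, also at an unadjusted p under 0.05, and DESeq2 called 0 as well, while 13.3% of all genes passed glmTreat. Without MK2 replicate 1, glmTreat called 1 member, Wnt4 (adjusted p = 0.0360).

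Wnt4 (chromosome 4, 137277635 to 137299501, mm10) had the largest fall. It stood at 526 and 446 CPM in MK1 and at 336 and 191 CPM in MK2, so both MK2 cultures lay below both MK1 cultures. The log2 change was -0.88 (95% interval -1.48 to -0.29, adjusted p = 0.0225), a level in MK2 of 0.543 times that in MK1. Dropping replicate 1 of MK1 ended the call (adjusted p = 0.141), as did dropping replicate 2 of MK1 (adjusted p = 0.0686), and the log2 change ran from -0.53 without MK2 replicate 2 to -1.34 without MK2 replicate 1, with adjusted p between 1.58e-04 and 0.141 over 12 alternative analyses. Over 12479 tested genes, the pattern of Wnt4 across the 4 libraries was most like that of Thra, a thyroid hormone receptor, Notch1, the Notch receptor of keratinocytes, and Hmgn5, a nucleosome-binding protein, with distances of 0.0759, 0.131 and 0.158 between centred log2 CPM profiles. Notch1 stood at 510.3 and 410.3 CPM in MK1 and 313 and 198 CPM in MK2. Among 12479 genes and over only 4 libraries, close matches can occur without any link, and no link was tested.

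By point estimate, Wnt7b and Wnt10a fell by similar amounts, smaller than that of Wnt4, with tight cultures. The 95% interval of Wnt4 (-1.48 to -0.29) contains the log2 change of each. Wnt7b (chromosome 15, 85535437 to 85581821) stood at 211 and 197 CPM in MK1 and 142 and 139 CPM in MK2, with a log2 change of -0.53 (95% interval -0.78 to -0.29, adjusted p = 0.00466). Wnt10a (chromosome 1, 74792019 to 74804175) stood at 236.2 and 236.5 CPM in MK1 and 174 and 169 CPM in MK2, with a log2 change of -0.46 (95% interval -0.70 to -0.23, adjusted p = 0.00719). Their cultures did not overlap between lines, and the TPM of Wnt7b was 0.396 and 0.369 times that of Wnt10a in MK1 and 0.364 and 0.366 times in MK2. Without MK1 replicate 1 both calls ended (adjusted p = 0.0560 for Wnt7b and 0.0629 for Wnt10a), and without MK1 replicate 2 that of Wnt10a did (adjusted p = 0.0567). Over the 12 alternatives the log2 change lay between -0.59 and -0.49 for Wnt7b, with adjusted p from 6.37e-05 to 0.0560, and between -0.52 and -0.44 for Wnt10a, with adjusted p from 2.95e-04 to 0.0629. The deposited exons of Wnt7b overlap those of AU022754 on the opposite strand by 38 bases, and reads there cannot be told apart without strand.

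**Figure D3:**
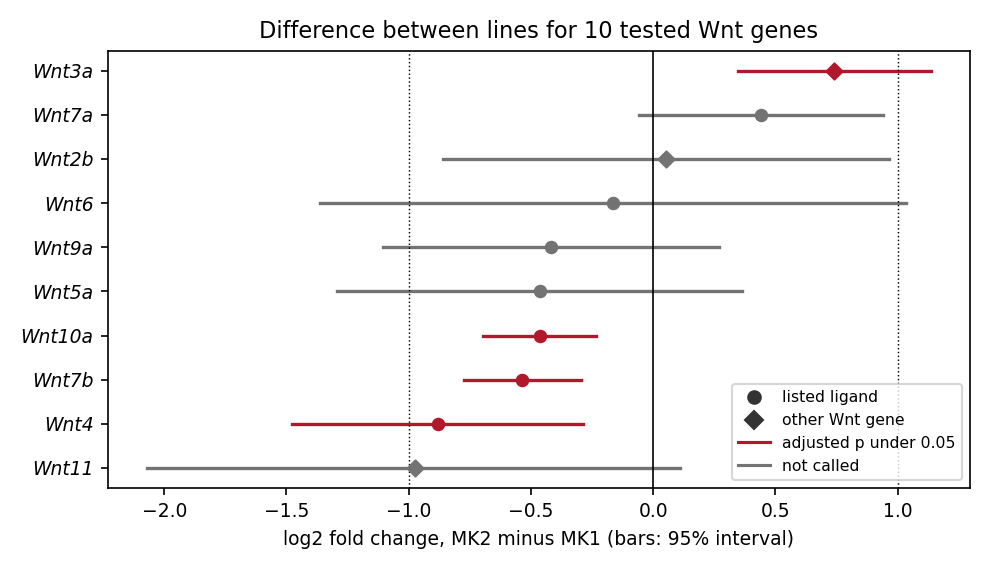
Log2 fold change (MK2 minus MK1) with its 95% interval for the 7 tested members (circles) and the 3 other tested Wnt genes (diamonds), red where the adjusted p is under 0.05. Wnt4, Wnt7b and Wnt10a lie below 0, Wnt3a lies above 0, and dotted lines mark 2-fold.

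Wnt7a, Wnt9a, Wnt6 and Wnt5a were not called. Wnt7a (chromosome 6, 91363983 to 91411369) stood at 119.97 and 122 CPM in MK1 and 126 and 203 CPM in MK2, both MK2 cultures above MK1 but one of them only just. Its log2 change was 0.44 (95% interval -0.06 to 0.94, adjusted p = 0.114). Wnt9a (chromosome 11, 59306930 to 59333552), a ligand known from joints and blood stem cell emergence, stood at 37.4 and 35.04 CPM in MK1 and 18.0 and 36.0 CPM in MK2. Its MK2 cultures lay on either side of one MK1 culture, and the log2 change was -0.42 (95% interval -1.10 to 0.27, adjusted p = 0.255). Wnt6 (chromosome 1, 74771892 to 74785319), a ligand of surface ectoderm, stood at 7.66 and 7.86 CPM in MK1 and at 10.9 and 3.03 CPM in MK2, one culture above and one below MK1. Its log2 change was -0.17 (95% interval -1.36 to 1.03, adjusted p = 0.798). Wnt5a (chromosome 14, 28505473 to 28525515), the mesenchymal ligand that acts largely without beta-catenin, stood at 2.10 and 1.27 CPM in MK1 and 1.03 and 1.41 CPM in MK2, with overlapping cultures and a log2 change of -0.46 (95% interval -1.29 to 0.36, adjusted p = 0.292). Dropping replicate 1 of MK1 moved the change of Wnt5a to -0.05 and dropping replicate 2 of MK1 moved it to -0.78, and over 11 alternatives adjusted p ran from 0.181 to 0.939. The intervals of Wnt9a, Wnt6 and Wnt5a reach past a 2-fold fall, and that of Wnt6 also past a 2-fold rise.

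The cultures of MK2 lay farther apart than those of MK1 for Wnt4, Wnt6, Wnt7a and Wnt9a. Replicate 2 minus replicate 1 of MK2 was -0.81 on the log2 scale for Wnt4, -1.84 for Wnt6, 0.68 for Wnt7a and 1.00 for Wnt9a, against -0.24, 0.04, 0.03 and -0.09 in MK1. For Wnt7b and Wnt10a it was -0.04 and -0.04 in MK2 and -0.10 and 0.0017 in MK1. Over all tested genes the median size of that difference was 0.172 in MK2 and 0.140 in MK1, and the 95th percentile 0.928 and 0.657. Wnt6 and Wnt9a thus lay beyond the 95th percentile of MK2. For Wnt5a the MK1 cultures lay farther apart, at -0.73 against 0.45 in MK2, and the MK1 difference was beyond the 95th percentile of that line. The percentiles pool genes of every depth, whereas Wnt5a had only 64 and 34 counts in MK1, where counting noise is larger.

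**Figure D4:**
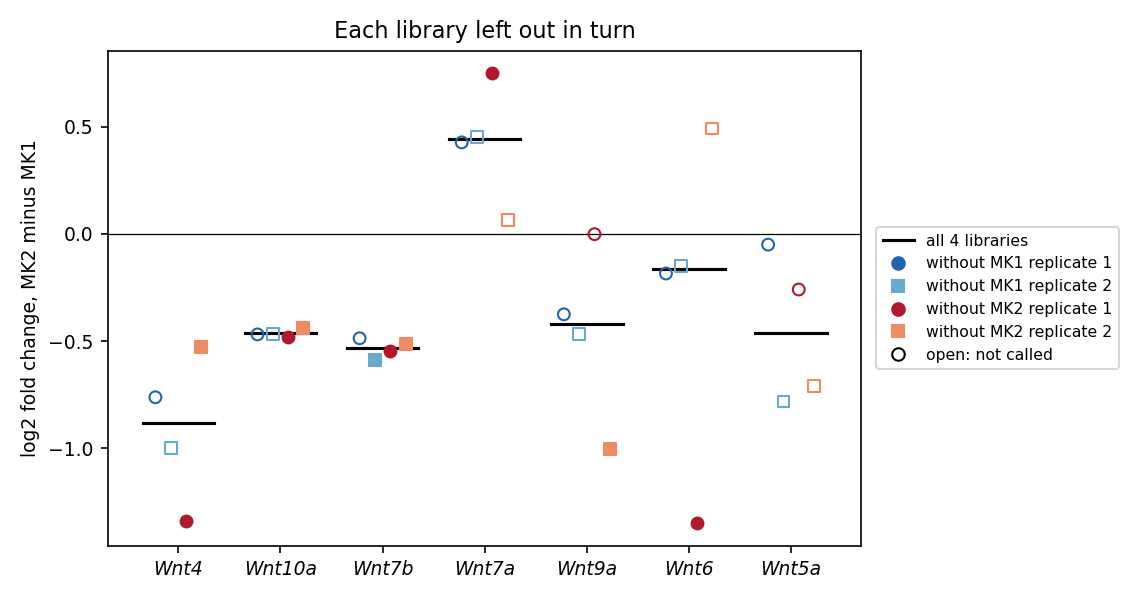
Log2 fold change (MK2 minus MK1) of the 7 tested members with all 4 libraries (black bar) and with each library left out (symbols, filled where the adjusted p is under 0.05). Wnt7b and Wnt10a stay within narrow ranges, whereas Wnt6 changes sign and Wnt4, Wnt7a and Wnt9a spread widely when an MK2 library is left out.

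For Wnt7a, Wnt6 and Wnt9a the call rested on which MK2 culture was used. Without MK2 replicate 1, Wnt7a was called higher (log2 change 0.75, adjusted p = 9.36e-04) and Wnt6 lower (-1.35, adjusted p = 0.00201). Without MK2 replicate 2, Wnt9a was called lower (-1.0, adjusted p = 8.03e-04) and Wnt6 turned to 0.49 with an adjusted p of 0.0573. Over all alternatives the adjusted p ran from 9.36e-04 to 0.669 for Wnt7a, from 0.00201 to 0.882 for Wnt6 and from 8.03e-04 to 0.993 for Wnt9a.

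Wnt3, Wnt10b and Wnt5b were at or near the limit of detection. Wnt3 (chromosome 11, 103774175 to 103818021), a ligand of beta-catenin signalling in hair follicle cells, had 4 and 2 counts in MK1 and 3 and 1 in MK2. Wnt10b (chromosome 15, 98771752 to 98778150), the relative of Wnt10a in hair placodes, had 0 counts in MK1 and 1 and 7 in MK2. Taking 3 counts over both MK1 libraries as the floor, the ratio of MK2 to MK1 was 2.85 for Wnt10b. That ratio takes the 8 counts of MK2 as they stand, 7 of them in 1 library. It leaves out their counting error and so is not a lower bound. Wnt10b was too low for the main test, and with no low-count filter it was not called (adjusted p = 0.0572, and 0.221 with DESeq2). Wnt5b (chromosome 6, 119432531 to 119544347), the relative of Wnt5a, had 0 counts in all 4 libraries, which allows up to 0.0987 to 0.119 CPM per library (3 counts, counting error only).

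Among the 9 Wnt genes outside the 10, Wnt3a was the one above 2 CPM. Wnt3a, a classical activator of beta-catenin, stood at 17.1 and 16.6 CPM in MK1 and 32.1 and 24.3 CPM in MK2, with no overlap, and rose by 0.74 on the log2 scale (95% interval 0.35 to 1.14, adjusted p = 0.00892). Dropping either MK1 replicate ended the call (adjusted p = 0.0674 each), and over 12 alternatives adjusted p ran from 4.60e-04 to 0.0674. Wnt11 stood at 1.28 and 1.12 CPM in MK1 and 0.318 and 0.882 CPM in MK2 and missed the threshold (adjusted p = 0.111). Dropping replicate 2 of MK2 gave a log2 change of -1.90 for Wnt11 (adjusted p = 0.0135), and adjusted p ran from 0.0135 to 0.384 over its 11 alternatives. Wnt2b was under 1 CPM throughout and was not called (adjusted p = 0.926), Wnt16 had 1 count in each line, and Wnt1, Wnt2, Wnt8a, Wnt8b and Wnt9b had 0 counts in all libraries.

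Wnt genes lie in linked pairs in the mouse genome, and 5 of the members have a Wnt neighbour within 100 kb. Wnt6 and Wnt10a lie on the same strand 6699 bases apart, yet Wnt10a was above 100 CPM and Wnt6 near 10 CPM or below. Their TPM ratio, Wnt6 to Wnt10a, was 0.0308 and 0.0315 in MK1 and 0.0593 and 0.0170 in MK2. Wnt9a and Wnt3a lie head to head 16178 bases apart. Wnt9a stood at 1.81 and 1.75 times the TPM of Wnt3a in MK1 and at 0.465 and 1.23 times in MK2. The pairs Wnt3 with Wnt9b and Wnt10b with Wnt1 were near 0 on both sides. Among the 50 tested genes nearest to Wnt7b, 24 were called lower and 6 higher, beside 28.6% lower and 25.9% higher over all tested genes. Their median log2 change was -0.38, beside -0.53 for Wnt7b itself. Around Wnt4 the median was 0.0034 over 50 genes and 0.25 over the nearest 20, and around Wnt10a it was -0.05 and -0.02, while both genes fell. Over the nearest 20 genes the median around Wnt7b was -0.53. For the remaining tested members the median over 50 genes was -0.22 around Wnt5a, -0.05 around Wnt6, 0.06 around Wnt7a and 0.03 around Wnt9a. Whether a member's change is tied to that of its neighbours was not tested.

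The machinery that makes and exports Wnt proteins was expressed in both lines. Porcn, the acyltransferase that lipid-modifies Wnt proteins, stood at 30.1 and 43.9 CPM in MK1 and 37.5 and 59.3 CPM in MK2 and missed the threshold (adjusted p = 0.228). It passed as higher with the replicate number as a block (adjusted p = 0.0466) and on dropping replicate 1 of MK2 (log2 change 0.69, adjusted p = 0.0206), and over 12 alternatives adjusted p ran from 0.0206 to 0.930. Wls, the carrier that takes Wnt proteins to the cell surface, stood at 305 and 256 CPM in MK1 and 252 and 258 CPM in MK2 and was not called (adjusted p = 0.361). Of 13 genes of acylation, export and extracellular handling, 10 were tested, 1 rose and 3 fell (40%, beside 54.6% of all tested genes). Vps35, a retromer subunit, rose by 0.43 on the log2 scale, a call that dropping either MK1 replicate ended (adjusted p = 0.0919 and 0.0731), while Snx3, a sorting nexin that recycles Wls, fell by 0.73. Gpc4, a glypican of the cell surface, fell from 22.9 ± 3.33 to 2.77 ± 0.322 CPM. Reck, a membrane protein that helps cells sense Wnt7a and Wnt7b, fell from 2.87 ± 0.168 to 0.443 ± 0.121 CPM.

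On the receiving side, several receptors had larger log2 changes than the tested ligands. Of 16 receptors and co-receptors 14 were tested, 2 rose and 5 fell, so 50% were called, beside 54.6% of all tested genes. By glmTreat 5 of the 14 were beyond 2-fold, beside 13.3% of all tested genes, a difference that was not tested. Fzd10 had 1 and 2 counts in MK2 against 15.8 and 11.4 CPM in MK1, a ratio of MK1 to MK2 of 245 (95% counting interval 83.4 to 1189). Ror2, the receptor best known for Wnt5a, had 2 and 1 counts in MK2 against 1.94 and 0.856 CPM in MK1, a ratio of 25.6 (8.44 to 126). Ptk7, a planar polarity co-receptor, fell from 269 ± 1.88 to 49.3 ± 24.1 CPM and Fzd8 from 5.39 ± 0.466 to 0.825 ± 0.380 CPM. The other called receptors, outside the naming rule, were Fzd1 (-2.05) lower and Ror1 (0.58) and Fzd9 (1.83) higher. Of 14 secreted antagonists and their partners, 12 stayed under 1 CPM in every library. Dkk3, a divergent Dickkopf protein, rose from 0.124 ± 0.0355 to 7.11 ± 0.960 CPM, and Kremen1, a receptor for Dickkopf proteins, fell by 0.72, though dropping replicate 1 of MK1 gave an adjusted p of 0.0597.

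**Figure D5:**
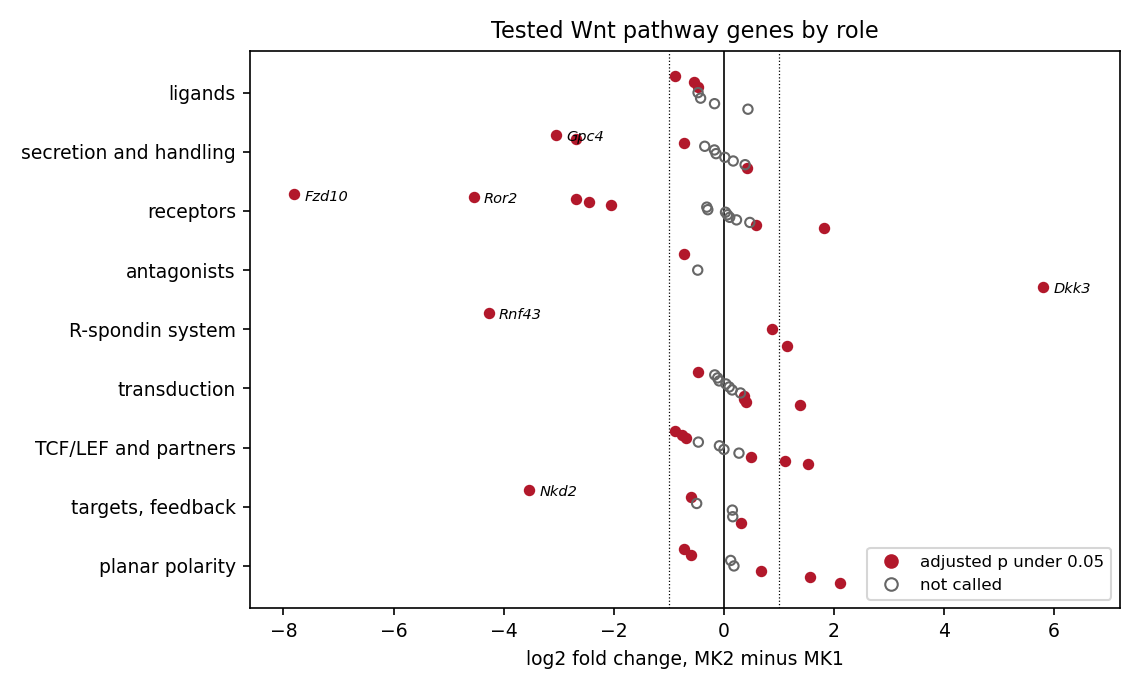
Log2 fold change (MK2 minus MK1) of each tested gene, one row per role in the Wnt pathway, red where the adjusted p is under 0.05 and open where it is not. The 7 ligands lie between -0.88 and 0.44, and Fzd10 (-7.81), Ror2 (-4.54), Rnf43 (-4.27), Nkd2 (-3.53) and Dkk3 (5.81) lie farthest out.

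Genes that tune receptor number moved in different directions. Of the 9 R-spondins, R-spondin receptors and Frizzled-removing ligases, 3 were tested and all 3 were called, beside 54.6% of all tested genes. Rnf43, a ligase that removes Frizzled from the surface, fell from 6.92 ± 0.162 to 0.351 ± 0.103 CPM, whereas its relative Znrf3 rose from 16.9 ± 0.198 to 31.0 ± 2.93 CPM. Lgr4, an R-spondin receptor, rose from 18.8 ± 2.53 to 41.8 ± 6.24 CPM. All 4 R-spondin genes stayed under 1 CPM.

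Inside the cell, the core genes of the beta-catenin branch were expressed in both lines. Of 12 genes of the Dishevelled and beta-catenin destruction machinery, all tested, 4 rose and 1 fell (41.7%, beside 54.6% of all tested genes). Ctnnb1, which encodes beta-catenin, fell from 1029 ± 31.9 to 742 ± 51.1 CPM (without MK1 replicate 1 or 2, adjusted p = 0.0646 and 0.0828). Ctnnbip1, which blocks beta-catenin from TCF factors, rose from 10.2 ± 0.600 to 26.7 ± 0.824 CPM. The scaffold genes Axin1 and Apc rose by 0.42 and 0.38, and both calls rested on 3 of the libraries, since dropping replicate 1 of MK1 gave adjusted p of 0.0687 and 0.251, dropping replicate 2 of MK1 gave 0.144 and 0.119, and dropping replicate 1 of MK2 gave 0.0518 and 0.151. The call of Apc also ended with the replicate number as a block (adjusted p = 0.0843), with scaling by upper quartile (0.0738) or library size alone (0.0550) and with a minimum count of 50 (0.0527). Of 12 TCF/LEF factors and partners, 10 were tested, 3 rose and 3 fell (60%). Lef1, the factor of hair follicle cells, had 1 count in each line. Tle1, a co-repressor, rose by 1.12, and Tle3, another, fell by 0.88 (without MK1 replicate 1, adjusted p = 0.0724). Tcf7l1, the TCF factor of follicle stem cells, fell by 0.76, but dropping replicate 1 or 2 of MK1 or replicate 2 of MK2 ended the call (adjusted p = 0.290, 0.0514 and 0.134). Tcf7 rose from 0.470 ± 0.0329 to 1.36 ± 0.414 CPM, a call that the same 3 omissions ended (adjusted p = 0.0865, 0.0914 and 0.0529), as did DESeq2 (adjusted p = 0.0615).

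Axin2, the general target of beta-catenin signalling, was low in both lines and was not called. It stood at 2.96 and 2.98 CPM in MK1 and 3.93 and 2.72 CPM in MK2 (log2 change 0.16, 95% interval -0.44 to 0.76, adjusted p = 0.619). Of 9 feedback and target genes 6 were tested, 1 rose and 2 fell (50%, beside 54.6% of all tested genes). Nkd2, outside the naming rule, fell and was the 1 gene of this list beyond 2-fold by glmTreat. It had 25 and 15 counts in MK1 and 1 and 2 in MK2, under 1 CPM in every library. Ccnd1, the cyclin of G1, fell from 1063 ± 79.9 to 706 ± 32.8 CPM (without MK1 replicate 1, adjusted p = 0.0570), and Myc rose by 0.31, a call that dropping replicate 1 or 2 of MK1 or replicate 2 of MK2 ended (adjusted p = 0.175, 0.199 and 0.112), with the replicate number as a block (0.0771), with upper-quartile scaling (0.0826) and with a minimum count of 50 (0.0522). Of 9 planar polarity genes, 7 were tested, 3 rose and 2 fell (71.4%, beside the same 54.6%). Celsr1 rose from 40.2 ± 14.9 to 174 ± 24.4 CPM and Vangl2 from 6.10 ± 0.156 to 18.2 ± 2.56 CPM, both membrane proteins of the polarity complex. Daam1, a formin, rose by 0.68, and Prickle1 fell by 0.72, though dropping replicate 1 of MK1 or replicate 1 of MK2 ended that call (adjusted p = 0.158 and 0.05003).

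Across the 94 pathway genes other than ligands, 65 were tested, 17 rose and 18 fell, or 53.8%, near the 54.6% of all tested genes. Without MK1 replicate 1, 19 of the 65 were called. By glmTreat 13 of the 65 were beyond 2-fold, 4 higher and 9 lower, against 0 of the 7 ligands. Over all 12479 tested genes 13.3% were beyond 2-fold, 405 higher and 1257 lower. The differences between those shares were not tested.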

How the data were processed

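RNA-seq of 4 keratinocyte cultures, 2 each of MK1 and MK2, was analysed. The authors deposited raw read counts per gene. Per the file headers, TopHat alignments to mm10 were assigned to exons with featureCounts 1.4.6-p4, with no option set for strand. The command in that header names the alignments MK and MKU, whereas the count columns are named MK1 and MK2, and columns were matched to samples by the column names; which cells MKU stands for is not given in the sources used here. Tools listed in the submitters' processing notes are featureCounts 1.5.0, DESeq2 1.10.1, Bowtie2 2.2.6 and TopHat2 2.0.13. Gene positions and lengths came from the same table (0 count columns lacked a sample).

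Counts were filtered with filterByExpr (minimum count 10), TMM-scaled and tested with edgeR 4.0.16 in R 4.3.3 (quasi-likelihood F test and glmTreat at a log2 change of 1, two-sided, Benjamini-Hochberg at 0.05). Intervals are approximate, from the F statistic. CPM profiles for likeness used log2 with a prior count of 2. The procedure was run on simulated counts drawn with the spread that the fit itself estimated. Changes were placed only in genes with higher counts, so changes in low-count genes such as Wnt5a were not covered. Replicates differed beyond counting noise (median chi-square per gene 2.87 in MK1 and 4.28 in MK2). Fits with 1 library of a line assume that it varies like the other line. DESeq2 1.42.0, other scalings and filters, each library left out and replicate blocks were alternatives.

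The members, lists and tests were chosen with earlier results of these data known. Named were all 10 members, the other Wnt genes, Axin2, Lef1, Porcn, Wls, and the largest changes in each pathway list: up to 4 called genes whose cultures did not overlap and whose line with more reached 1 CPM.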

Additional observations from a re-analysis of the deposited data

How the results depend on the processing

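Over 12 alternatives (11 for Wnt5a, too low for a minimum count of 50), 72 of the comparisons for the 7 members kept their direction and side of the threshold, 5 lost a call, 5 gained one and 1 turned in sign. Those 11 came from leaving out a library or from the crossed block. Leaving out each library gave 3716 to 6847 called genes, 985 to 1717 beyond 2-fold, 0 to 5 called members, 0 to 1 member beyond 2-fold and 19 to 36 called pathway genes. Without MK1 replicate 1, 0 members were called by edgeR, with 2 at an unadjusted p under 0.05. DESeq2 called 1099 genes beyond 2-fold. Replicate numbers are not said to pair cultures, and deviations of same-numbered replicates correlated at -0.151 over 12479 genes. With the replicate number as a block, 5908 genes and the same number of members, 3, were called. A crossed block, chosen after seeing the data, called 5 members. Leaving out each library moved the log2 change of Wnt6 from -1.35 to 0.49, of Wnt2b from -0.20 to 0.29 and of Axin2 from -0.12 to 0.41, and upper-quartile scaling turned Wnt2b to -0.0046. The cause was not tested. By CPM in place of TPM, the share of Wnt4 in MK1 was 43.6% rather than 35.9%, since CPM does not divide by gene length. Fewer libraries leave fewer degrees of freedom, and 2 cultures a line limit every test.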
